A study of Mus musculus with 8 samples.

Results

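The renin-angiotensin system genes of the deposited kidney table were taken by name, and they comprise *Ren1*, *Agt*, *Ace*, *Agtr1a*, *Agtr1b*, *Mas1*, *Enpep*, *Mme* and *Atp6ap2*. All 9 were found, 1 row each, among the 55401 genes listed. RNA was from kidneys of diabetic mice, with 1 library per mouse, from 4 mice given rFGF4 and 4 db/db model mice that served as their controls. The labels carry the numbers 1, 2, 3 and 5 for rFGF4 and 2, 3, 4 and 5 for the db/db model, used here as mouse numbers. rFGF4 is a recombinant, non-mitogenic form of fibroblast growth factor 4, given by intraperitoneal injection, with PBS as the vehicle. db/db mice lack a functional leptin receptor and become obese and diabetic, and the design text of the series places both groups in this model, although the sample labels give the genotype for the control group alone. The study's text describes the sequenced animals as male mice made diabetic with streptozotocin (STZ) instead, and nothing in the table decides between the models. The labels give neither age, dose nor duration, and no non-diabetic kidney was analysed here, so the values say nothing of how diabetes itself altered these genes.

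In the renin-angiotensin system, renin from the juxtaglomerular cells of the kidney cuts angiotensinogen to angiotensin I, and angiotensin-converting enzyme then makes angiotensin II. Angiotensin II acts through type 1 receptors to constrict vessels and retain sodium, while other peptidases degrade it or turn it into a shorter peptide that acts on the Mas receptor and widens vessels. The kidney holds a local version of the pathway, and drugs that block it are standard treatment of diabetic kidney disease.

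Between the treated and control kidneys, 0 of the 9 genes passed the threshold used throughout, which asks for an unadjusted p below 0.05 together with a fold change of 1.5 or more, or 0.67 or less. Of all 15150 genes tested, 1.52% passed it, 1.09% being higher and 0.436% lower in treated mice. The test was limma on log2(FPKM + 1), where FPKM is the number of fragments per length of transcript and per mapped fragments of the library, and it covered genes that reached 0.5 FPKM in no fewer than 4 libraries. *Agtr1b* and *Mas1* did not reach that level and were not tested. Of the 7 members that were tested, 5 had a positive and 2 a negative log2 fold change of rFGF4-treated over control mice, with a median of 0.12, beside a median of 0.09 over all genes tested. With Benjamini-Hochberg adjustment in limma, 0 of the 7 members and 0 of the 15150 genes had an adjusted p under 0.05, and the smallest adjusted p of the members was 0.920. At an unadjusted p under 0.05 there were also 0 members, beside 4.62% of the genes tested. In 0 members did all mice of one group lie above all of the other, which held for 3.33% of the genes tested. A p that misses the threshold does not show equal levels, and the intervals below give the differences that these 8 libraries allow.

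The libraries were of similar depth, 0.905 to 1.12 times that of control mouse 2, as estimated from the FPKM steps of low genes. Mitochondrial transcripts made up 19.0% to 36.0% of the summed FPKM in treated and 24.4% to 38.4% in control mice, lowest in rFGF4 mouse 1, which also had the lowest sum (389407 against 435312 to 552604 FPKM) and the largest factor in the median-ratio scaling (1.296 against 0.907 to 1.107). No read counts were used here, so counting error is unknown. The labelled tissue held its defining markers in each library, such as *Umod*, *Slc12a1* and *Synpo* in the tubule and podocyte lists. The libraries rFGF4 mouse 1 and control mouse 5 stood apart. In the former, 4 markers of the first proximal tubule segments (*Slc5a2*, *Slc5a12*, *Slc34a1*, *Slc22a6*) summed to 212 FPKM, against 659 to 1137 in the other 7 libraries. In the latter, 6 lymphocyte and lymph node markers summed to 22434 FPKM, against 26.1 to 2661 elsewhere. Macrophage markers summed to 246 and 277 FPKM in this pair of libraries and to 16.3 to 105 in the rest. With both left out, which was chosen after seeing the data, 0 members passed the threshold, beside 1.8% of all genes tested.

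The promoters of 3 members are shown because they are the genes for the substrate and both enzymes of the classical pathway and each holds a TATA motif near the start of the gene. The 150 bases before the transcription start are from RefSeq on GRCm38.p6, whose *Ren1* start lies within the span that GENCODE gives the gene, written 5′ to 3′ in the sense of the gene, with the motif in capitals (TATAAA, or TTTATA where it lies on the other strand). *Ren1* is shown for chr1:133350524-133350673 on the plus strand, *Agt* for chr8:124569707-124569856 on the minus strand and *Ace* for chr11:105967798-105967947 on the plus strand.
Ren1: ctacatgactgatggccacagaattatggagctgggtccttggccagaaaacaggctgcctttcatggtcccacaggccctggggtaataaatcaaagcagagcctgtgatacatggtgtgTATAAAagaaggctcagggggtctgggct
Agt: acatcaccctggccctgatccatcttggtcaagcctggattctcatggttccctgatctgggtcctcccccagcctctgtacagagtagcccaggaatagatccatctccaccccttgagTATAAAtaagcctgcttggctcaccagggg
Ace: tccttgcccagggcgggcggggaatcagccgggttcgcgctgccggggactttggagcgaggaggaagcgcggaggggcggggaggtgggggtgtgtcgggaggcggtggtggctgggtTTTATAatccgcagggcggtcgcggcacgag
The motif began 29 bases before the start in *Ren1* and 30 in *Agt*, and it lay on the opposite strand in *Ace*. RefSeq windows were found for 8 of the 9 members. TATAAA was searched on both strands over 250 bases before the start, and it was found in 5 of their 11 windows, 1 each in the 3 members shown, *Agtr1b* and *Enpep*, beside 12.4% of 32851 mouse promoters of the same length. CCAAT, searched in the same way, was in 7 of the 11 windows and in 6 of the 8 members, with none in the windows of *Ren1* and *Agt*, beside 33.8% of all promoters. Windows of *Mme* overlap, so the same CCAAT match there counts more than once. The cyclic AMP response element TGACGTCA was in 0 of the 11 windows, beside 1.55% of all promoters. A match is a run of letters and was not tested for binding. RefSeq gives *Ace* another start within the gene, known as that of the testis form, and the FPKM per gene does not separate the forms.

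Over the 8 libraries, *Ren1* and *Agt* had the highest mean levels on the FPKM scale, which is per length of transcript. The mean of *Ren1* was 64.9 ± 54.8 FPKM (SD, n = 8) and that of *Agt* 58.4 ± 13.8, but *Ren1* was above *Agt* in 3 of the 8 libraries, above *Atp6ap2* in 5 and above *Enpep* in 6, so its place in the order was not fixed. *Atp6ap2* (33.7 ± 2.02), *Enpep* (24.7 ± 4.27) and *Ace* (11.2 ± 3.50) followed, and each of the steps from *Agt* down to *Ace* held in 8 of 8 libraries. *Ace* was above *Agtr1a* in 6 of 8. *Agtr1a* (8.57 ± 3.04) and *Mme* (8.43 ± 1.42) could not be ordered, with *Agtr1a* above *Mme* in 5 of 8. *Mas1* lay at 0.173 ± 0.0895 FPKM and *Agtr1b* near 0, each below the gene before it in all 8 libraries.

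**Figure D1:**
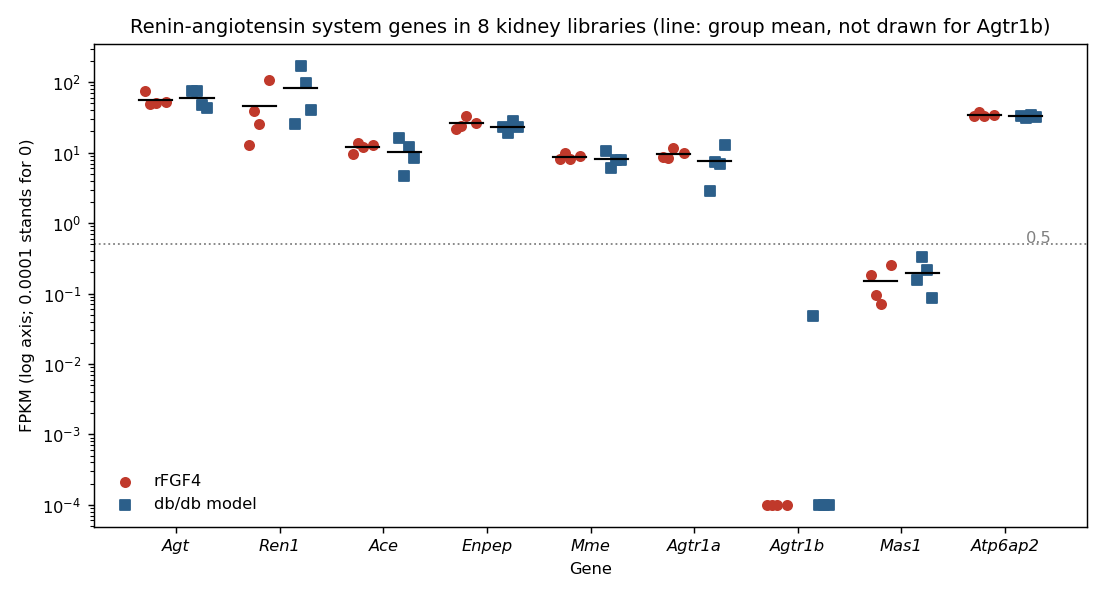
FPKM of the 9 renin-angiotensin genes in each mouse on a log axis, with circles for the 4 rFGF4-treated mice, squares for the 4 db/db model mice, short lines for the group means and a dotted line at the 0.5 FPKM needed for a test. *Ren1* spread from 12.9 to 170.5 FPKM, *Atp6ap2* from 30.9 to 37.5, and the groups overlapped in each gene.

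*Agt* encodes angiotensinogen, the substrate of renin, which in the kidney is made by proximal tubule cells. It is ENSMUSG00000031980, on chromosome 8 from 124556534 to 124569706 on the minus strand of GRCm38 in the GENCODE annotation, as are all gene spans given here. Its FPKM was 74.8, 49.3, 50.4 and 52.9 in rFGF4 mice 1, 2, 3 and 5 and 74.5, 75.0, 47.2 and 43.5 in control mice 2, 3, 4 and 5. High values near 75 and low values near 50 occurred in both groups, with rFGF4 mouse 1 alone among the treated mice at the high level. Group means were 56.8 ± 12.0 and 60.0 ± 17.0 FPKM (SD, n = 4 each). The fold change on the FPKM + 1 scale was 0.962 (95% confidence interval 0.669 to 1.38), with an adjusted p of 0.975 in limma and p = 0.971 in a two-sided exact permutation test, in which 4 mice against 4 cannot give less than 0.0286. The sign of its log2 fold change of -0.06 turned in 3 of the fits that left out 1 mouse, being 0.0047 without rFGF4 mouse 2, 0.061 without control mouse 2 and 0.065 without control mouse 3. The library with the least proximal tubule signal, rFGF4 mouse 1, was thus not low in *Agt*, and the part of tissue composition in these values was not tested.

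*Ren1* encodes renin, the enzyme that starts the cascade, which the kidney stores in granules of the juxtaglomerular cells. It is ENSMUSG00000070645, on chromosome 1 from 133350510 to 133360325 on the plus strand. Some mouse strains carry a near-identical copy, *Ren2*. The table has 0 rows of that name, so the *Ren1* values are uncertain in so far as reads of such a copy would have been counted there. FPKM was 12.9, 38.7, 25.8 and 107 in rFGF4 mice 1, 2, 3 and 5 and 25.9, 170.5, 97.5 and 40.5 in control mice 2, 3, 4 and 5. A single treated mouse, number 5, stood well above the rest of its group, whereas the controls fell into a high pair (3 and 4) and a low pair (2 and 5). Of the controls, only mouse 3 lay outside the range of the treated mice. Means were 46.1 ± 42.0 and 83.6 ± 65.7 FPKM (SD, n = 4 each), and the SD was nearly as large as the mean in both groups. The log2 fold change was -0.89 (standard error 0.74), or a fold change of 0.540 with an interval of 0.167 to 1.75. The difference was smaller than the spread between mice (limma adjusted p = 0.920; exact permutation test, two-sided, p = 0.343).

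The distance between the highest and the lowest library was 13.2-fold for *Ren1*. Its within-group SD on the log2 scale was 1.22, and 97.3% of the genes tested had an SD as low or lower. Which mice were included moved the size of the difference, though its sign stayed negative in every fit that left out a mouse. The log2 fold change was -1.42 without rFGF4 mouse 5, -0.44 without rFGF4 mouse 1, -0.43 without control mouse 3 and -0.66 without rFGF4 mouse 1 and control mouse 5 together. In whole kidney, fewer renin cells and less renin RNA per cell cannot be told apart.

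Genes known to be expressed in juxtaglomerular cells and nearby pericytes gave a partial picture of the same mice. *Akr1b7*, an aldo-keto reductase found in renin cells, was 1.92, 3.01, 1.49 and 2.12 FPKM in rFGF4 mice 1, 2, 3 and 5 and 0.950, 5.80, 2.42 and 2.58 in control mice 2, 3, 4 and 5. Its highest value was in control mouse 3, as for *Ren1*, but in rFGF4 mouse 5, where *Ren1* was also high, it was near the middle. *Gja5*, the gap junction protein connexin 40 of renin cells and endothelium, was also highest in control mouse 3 (1.80 FPKM) and was lowest in rFGF4 mouse 5 (0.242 FPKM). *Rgs5*, a regulator of G-protein signalling in pericytes, was highest in control mouse 5 (35.4 FPKM) and between 11.5 and 18.2 FPKM in the others. *Kcnj8*, a potassium channel subunit of pericytes, was lowest in control mouse 3 (0.933 FPKM) and between 1.02 and 2.35 FPKM in the others. These 4 markers summed to 14.7 to 23.2 FPKM in treated and 19.2 to 41.6 FPKM in control mice. In each library, *Rgs5* made up most of that sum. All 4 markers had a negative log2 fold change with a median of -0.20, and 0 passed an unadjusted p under 0.05 in limma. The 4 smooth muscle markers, which include *Acta2* and *Myh11* and mark the vessel wall that renin cells belong to, summed to 30.4 to 57.5 FPKM in treated and 25.3 to 104 FPKM in control mice. Their part in the *Ren1* values was not tested. The macula densa list (*Nos1*, *Ptgs2*, *Pappa2* and *Avpr1a*), genes of the tubule cells that signal to renin cells, summed to 2.59 to 4.98 and 1.86 to 6.24 FPKM. Most of that sum was *Avpr1a*, a vasopressin receptor gene. Mean FPKM in treated and control mice was 0.160 and 0.202 for *Nos1* and 0.677 and 0.843 for *Ptgs2*, with overlap of the groups in both. *Pappa2*, a protease gene singled out after its values were seen, was 0.896, 0.536, 0.534 and 0.162 FPKM in the treated mice and 0.0625, 0.0818, 0.0548 and 0.181 FPKM in the controls, in the same order. The groups overlapped through rFGF4 mouse 5 and control mouse 5, and the gene was below the level needed for the limma test (exact permutation test, two-sided, p = 0.0571).

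**Figure D2:**
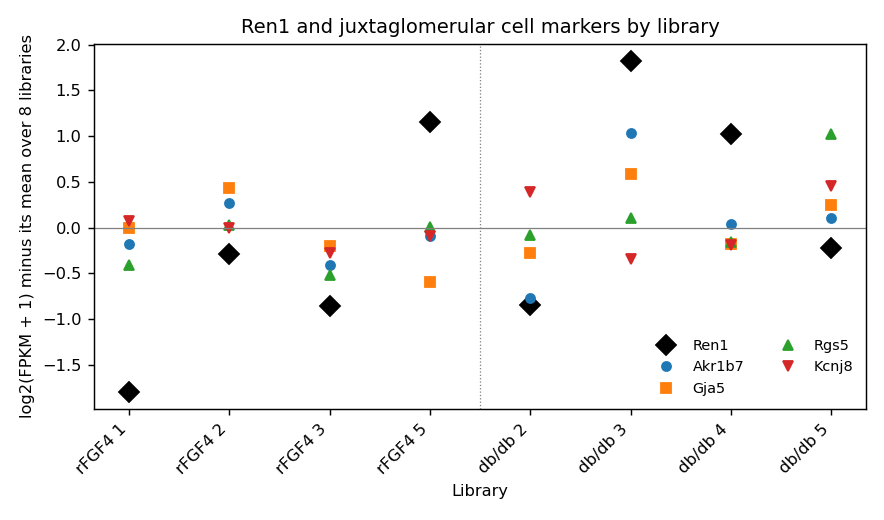
Deviation of log2(FPKM + 1) from its mean over the 8 libraries for *Ren1* (diamonds) and the 4 juxtaglomerular markers, by library, with the treated mice to the left of the dotted line. Control mouse 3 (db/db 3) was highest in *Ren1*, *Akr1b7* and *Gja5* but lowest in *Kcnj8*, while rFGF4 mouse 5 combined 107 FPKM of *Ren1* with the lowest *Gja5* value, 0.242 FPKM.

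*Atp6ap2*, also called the prorenin receptor, encodes a protein that binds renin and prorenin and is an accessory subunit of the vacuolar proton pump. It is ENSMUSG00000031007, on chromosome X from 12587801 to 12617049 on the plus strand. FPKM was 33.6, 37.5, 33.4 and 34.5 in rFGF4 mice 1, 2, 3 and 5 and 33.2, 30.9, 34.7 and 31.6 in control mice 2, 3, 4 and 5. The libraries were almost level, the highest being 1.21 times the lowest, and only control mouse 4 kept the treated mice from lying above all controls. The fold change was 1.06 (interval 0.911 to 1.24; limma adjusted p = 0.926; exact permutation test, two-sided, p = 0.171). Its within-group SD of 0.07 on the log2 scale was among the lowest, with 1.16% of the genes tested at or below it, so *Ren1* and *Atp6ap2* lay near opposite ends of the range of spread. The log2 fold change of 0.09 was the same as the median of all genes, and it was -0.038 once libraries were brought to the same median ratio. Of 14 other subunits of the proton pump, all tested, 9 had a positive and 5 a negative log2 fold change, from -0.09 to 0.49 with a median of 0.08, and 0 passed an unadjusted p under 0.05 in limma.

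*Ace* encodes angiotensin-converting enzyme, which makes angiotensin II and in mouse kidney sits mainly on the brush border of the proximal tubule. It is ENSMUSG00000020681, on chromosome 11 from 105967945 to 105989964 on the plus strand, where its exons overlap the antisense gene *Gm11651*. Whether the counting used strand is not stated, so reads of the pair cannot be told apart. FPKM was 9.72, 13.8, 12.0 and 13.0 in rFGF4 mice 1, 2, 3 and 5 and 15.9, 4.74, 12.2 and 8.35 in control mice 2, 3, 4 and 5. The treated mice were close together at 12.1 ± 1.75 FPKM (SD, n = 4), whereas the controls, at 10.3 ± 4.82, held both the highest and the lowest value. The fold change was 1.25 (interval 0.759 to 2.05), and it did not exceed the spread between mice (limma adjusted p = 0.925, exact permutation test p = 0.486, two-sided). The log2 fold change of 0.32 (standard error 0.31) rested largely on control mouse 3, without which it was 0.03.

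The brush-border peptidases *Enpep* and *Mme* each had a within-group SD of 0.23 on the log2 scale, and 38.3% of the genes tested had one as low or lower. *Enpep*, aminopeptidase A, trims angiotensin II (ENSMUSG00000028024, chromosome 3, 129269175 to 129332720, minus strand). Its FPKM was 21.9, 24.0, 32.9 and 26.5 in rFGF4 mice 1, 2, 3 and 5 and 22.9, 19.0, 27.8 and 22.8 in control mice 2, 3, 4 and 5. The highest of all was rFGF4 mouse 3 and the lowest control mouse 3, which are different animals, and the groups overlapped through rFGF4 mouse 1 and control mouse 4. The fold change was 1.13 (interval 0.874 to 1.46; limma adjusted p = 0.921; exact permutation test, two-sided, p = 0.343). *Mme*, neprilysin, cleaves angiotensin I to the vasodilator peptide (ENSMUSG00000027820, chromosome 3, 63241537 to 63386030, plus strand). Its FPKM was 8.23, 9.87, 8.03 and 8.88 in rFGF4 mice 1, 2, 3 and 5 and 10.7, 6.04, 7.86 and 7.85 in control mice 2, 3, 4 and 5. The highest and the lowest value were both in controls. The fold change was 1.08 (interval 0.835 to 1.41; limma adjusted p = 0.940; two-sided exact permutation test, p = 0.486). Its log2 fold change of 0.12 was 0.00074 without control mouse 3. In rFGF4 mouse 1, where the early proximal tubule markers were lowest, *Enpep* was the lowest of the treated mice but not of all 8 libraries, *Mme* was within the range of the other treated mice, and *Anpep*, another brush-border peptidase, was the lowest of all 8 at 18.5 FPKM. The part of tissue composition in these values was not tested.

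*Agtr1a* encodes the main type 1 angiotensin II receptor of the mouse kidney, found on vessels, mesangium and tubules. It is ENSMUSG00000049115, on chromosome 13 from 30336441 to 30382867 on the plus strand. FPKM was 8.71, 8.32, 11.7 and 9.75 in rFGF4 mice 1, 2, 3 and 5 and 2.88, 7.49, 6.98 and 12.7 in control mice 2, 3, 4 and 5. All treated mice were above 3 of the 4 controls, and control mouse 5 was the highest of all. The log2 fold change was 0.44 (standard error 0.34), a fold change of 1.36 with an interval of 0.789 to 2.34, and did not exceed the spread between mice (limma adjusted p = 0.920, exact permutation test p = 0.314, two-sided). Among the fits that left out 1 mouse, *Agtr1a* was the member that passed the threshold in one of them. Without control mouse 5 the groups no longer overlapped (8.32 to 11.7 against 2.88 to 7.49 FPKM), the log2 fold change was 0.72 and *Agtr1a* passed the threshold, with an adjusted p of 0.620 in limma. In that fit 2.85% of all genes tested passed it, and the groups did not overlap in 10.8%. Without control mouse 2 the log2 fold change was 0.11. Leaving out rFGF4 mouse 1 and control mouse 5 together gave 0.76, with an adjusted p of 0.753 in limma. Control mouse 5 is the library with the high lymphocyte and macrophage markers, and their part in its *Agtr1a* value was not tested.

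*Agtr1b*, the other type 1 receptor gene of the mouse (ENSMUSG00000054988, chromosome 3, 20314473 to 20367177, minus strand), is best known from the adrenal gland. It was listed at 0.0001 FPKM, the value that the table holds in place of 0, in 7 libraries and at 0.0478 FPKM in control mouse 2. *Agtr1a* thus made up 100% of the summed type 1 receptor FPKM in those 7 libraries and 98.4% in control mouse 2. The adrenal enzymes *Cyp11b1* and *Cyp11b2* were listed at 0.0001 FPKM in all 8 libraries. Of the same list of adrenal markers, *Cyp21a1* was above 0.0001 FPKM in 3 libraries, at 0.0934 FPKM at most. *Star* was 0.772 to 1.34 FPKM over the 8 libraries. *Agtr2*, the type 2 receptor gene, was listed at 0.0001 FPKM in all 8. *Mas1*, the receptor of the vasodilator arm (ENSMUSG00000068037, chromosome 17, 12841079 to 12868143, minus strand), was 0.182, 0.0945, 0.0719 and 0.257 FPKM in rFGF4 mice 1, 2, 3 and 5 and 0.154, 0.326, 0.213 and 0.0878 in control mice 2, 3, 4 and 5. These low values were spread alike over both groups, and the group means were 0.151 ± 0.0850 and 0.195 ± 0.101 FPKM (SD, n = 4 each; two-sided exact permutation test, p = 0.543).

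**Figure D3:**
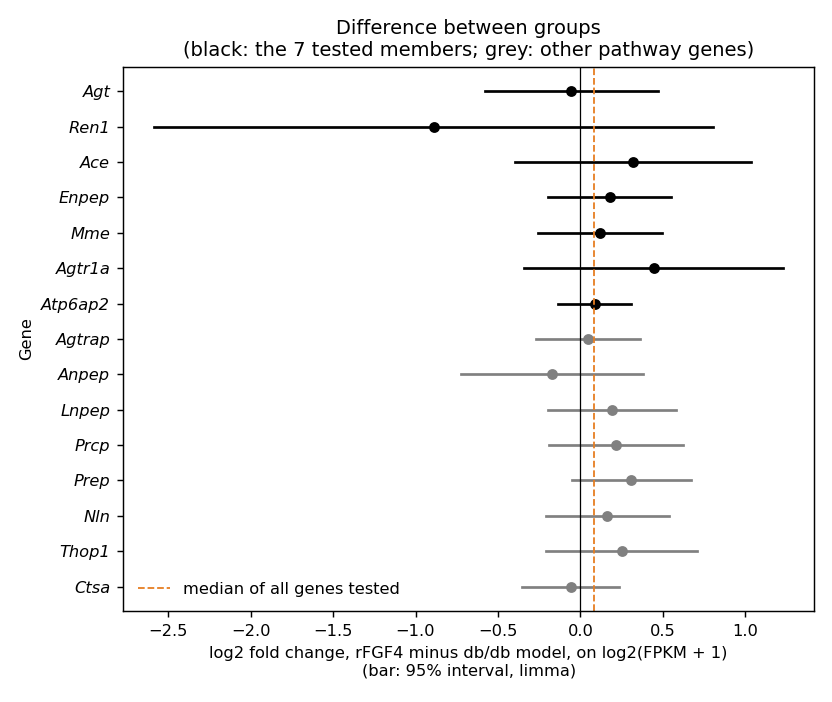
Log2 fold change of rFGF4-treated over db/db model mice with its 95% confidence interval from limma on log2(FPKM + 1), for the 7 tested members (black) and 8 other genes of the pathway (grey), with a dashed line at the median of all genes tested. Each interval of a member includes 0, and that of *Ren1*, from -2.58 to 0.81, is the widest of the members.

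Beyond the members, 0 tested genes of the pathway had an unadjusted p under 0.05 in limma. Of 13 further genes of angiotensin processing and signalling, 8 were tested, with 6 positive and 2 negative log2 fold changes from -0.17 to 0.31 and a median of 0.18. In 0 of the 8 did the groups separate. At the upper end was *Prep*, prolyl endopeptidase, which can form the vasodilator peptide, at 3.59 ± 0.806 FPKM in treated and 2.67 ± 0.353 in control mice (SD, n = 4 each; two-sided exact permutation test, p = 0.0857). At the lower end was *Anpep*, aminopeptidase N of the brush border, whose FPKM of 18.5 in rFGF4 mouse 1 was the lowest of all libraries. The kallikrein-kinin system makes kinins, vasodilator peptides that angiotensin-converting enzyme degrades. There, 5 of 6 genes were tested, with 3 positive and 2 negative log2 fold changes from -0.36 to 0.37, and 0 passed an unadjusted p under 0.05 in limma. *Klk1*, tissue kallikrein, was more abundant than any member, at 804.5 to 1405 FPKM in treated and 1173 to 2490 FPKM in control mice.

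Angiotensin II releases aldosterone from the adrenal gland, and a list of 8 genes held its receptor gene *Nr3c2*, the gene *Hsd11b2*, whose enzyme protects the receptor from glucocorticoids, and 6 genes known to respond to it. All 8 were tested, with 3 positive and 5 negative log2 fold changes from -0.42 to 0.59, a median of -0.04 and 0 at an unadjusted p under 0.05 in limma. The values were highest for the clock gene *Per1* (0.59), the glucocorticoid-induced gene *Tsc22d3* (0.58) and the kinase gene *Sgk1* (0.35), and lowest for the sodium channel subunit *Scnn1g* (-0.42). The 5 negative ones were the 3 sodium channel subunits, *Nr3c2* and *Hsd11b2*.

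**Figure D4:**
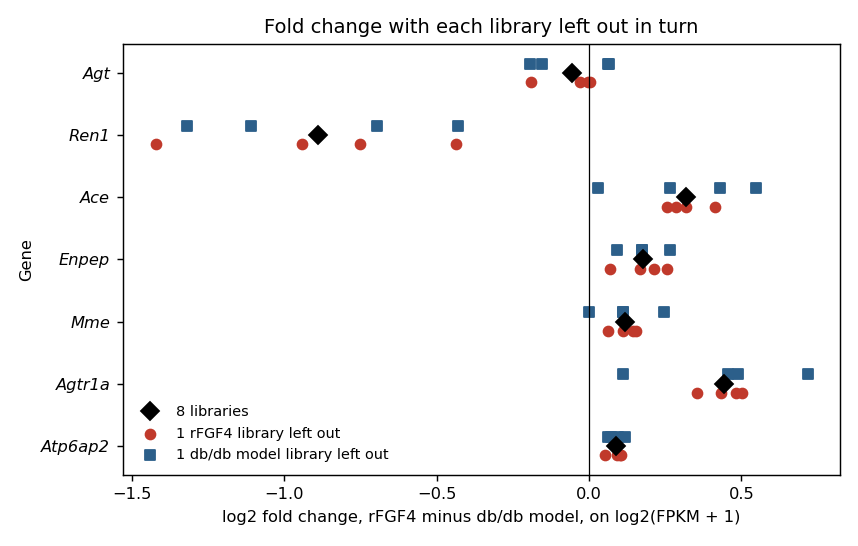
Log2 fold change of each tested member over all 8 libraries and with each mouse left out in turn, from the same limma fit (diamonds for all 8, circles without a treated mouse, squares without a control mouse). *Ren1* ranged from -1.42 to -0.43, *Agtr1a* from 0.11 to 0.72 and *Atp6ap2* from 0.05 to 0.12.

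Leaving out each mouse in turn kept the sign of the log2 fold change for *Ren1*, *Ace*, *Agtr1a*, *Enpep*, *Mme* and *Atp6ap2*, but not for *Agt*. The plot of these fits shows how much each member rested on single mice. *Ace* ranged from 0.03 to 0.55, *Enpep* from 0.07 to 0.27 and *Mme* from 0.00074 to 0.25. For *Mme* the groups did not overlap without control mouse 2 (8.03 to 9.87 against 6.04 to 7.86 FPKM), and for *Atp6ap2* without control mouse 4 (33.4 to 37.5 against 30.9 to 33.2 FPKM), but neither passed the threshold there. With these mice left out, the groups did not overlap in 4.81% and 5.04% of all genes tested.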

How the data were processed

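Poly(A) RNA of 8 mouse kidneys was sequenced as paired-end libraries. The authors assembled mapped reads with StringTie, merged the transcripts with gffcompare and deposited FPKM per gene, in which 0.0001 stands in place of 0. Per the submitters' processing notes, the tools were HISAT2 2.0, StringTie 1.3.0 and Bowtie 0.12.2 with build mm8. The authors also deposited a fold change, its log2, a p-value and a q-value per gene from their edgeR comparison, which were not used. Of the Ensembl identifiers, 99.5% were in GENCODE M21, so coordinates are given on GRCm38 from that annotation.

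The 15150 genes that reached 0.5 FPKM in no fewer than 4 libraries were analysed as log2(FPKM + 1) with limma 3.58.1 in R 4.3.3 (trend, Benjamini-Hochberg), since no counts were used here, and tested on simulated data. A pseudocount of 1 understates the change of low genes. Exact permutation tests (two-sided, 70 splits) were run on single values. P-values measure the spread between mice, and the labels do not say how mice were housed or assigned. Mice were grouped by title. The members, the lists and the alternatives were chosen with earlier results of these data known. The text names all members, listed genes with an unadjusted limma p under 0.05, *Agtr2*, and for each expressed member the 3 genes most like it over the libraries; other genes were named after their values were seen. The results of some genes under this rule are not reported here. Alternatives were another pseudocount, filter or fold limit, array weights, scaling by the median ratio, a replicate block and each mouse left out. Plots were made in Python 3.11.15 with matplotlib 3.10.9.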

Additional observations from a re-analysis of the deposited data

Results flagged for a closer look

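In 18 groups of 4 libraries (the members and the receptor share in each treatment group, where the values were not all equal), 3 had a library far from the others by Dixon's limit at the 95% level. Chance gives about 1 in 20, a rate that applies to the first of these alone, since the other two come from a single value beside 3 libraries tied at the value that stands for 0. For *Agt* in rFGF4-treated mice, the gap between mouse 1 (74.8 FPKM) and the nearest of the others (49.3 to 52.9 FPKM) took 0.832 of the group's range on the log2(FPKM + 1) scale. The library of rFGF4 mouse 1 is the one with the lowest early proximal tubule marker sum, 212 FPKM, and 2 of the control mice had an *Agt* level near it (74.5 and 75.0 FPKM). For *Agtr1b* in the controls, mouse 2 (0.0478 FPKM) was alone above the value that stands for 0, so the gap took 1.0 of the range, and the share of type 1 receptor FPKM from *Agtr1a*, 98.4% in that mouse, stood apart through the same value, with a gap of 1.0 of the range.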

How the results depend on the processing

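Over 15 alternatives each, the members' log2 fold changes stayed on the same side of the threshold except *Agtr1a* without control mouse 5 (0.72), and their signs held except *Agt* (-0.19 to 0.065 with a mouse left out; 0.0047, 0.061 and 0.065 without rFGF4 mouse 2, control mouse 2 or control mouse 3) and *Atp6ap2* (-0.038 after scaling to a common median ratio). It also gave *Ren1* -1.01, *Agt* -0.18, *Ace* 0.20, *Agtr1a* 0.34, *Enpep* 0.05 and *Mme* 0.0020. That scaling moved the median of all genes from 0.09 to -0.01 and the genes past the threshold from 165 higher and 66 lower to 93 and 81. Across all genes tested, 231 passed the threshold, and in other fits the number was 348 with a pseudocount of 0.1, 490 with array weights, 54 with a fold limit of 2 and 187 to 575 with each mouse left out (575 without rFGF4 mouse 5, 432 without control mouse 5). Members past the threshold numbered 0 to 1 with a mouse left out, and members without overlap 0 to 1. The difference in the percentage of type 1 receptor FPKM from *Agtr1a* was 0.408 points, 0 to 0.544 with a mouse left out, and 3.72 with a pseudocount of 1. With *Agtr1b* at or near 0, adding that pseudocount makes the percentage follow the level of *Agtr1a*. Mice with the same number did not deviate together (correlations -0.39 to -0.16). So few pairs cannot show whether the numbers pair samples, and the labels do not say. With a replicate block the number of genes past the threshold was 262, and the log2 fold changes were -0.24 for *Ren1*, -0.29 for *Agt*, 0.52 for *Ace*, 0.50 for *Agtr1a*, 0.35 for *Enpep*, 0.14 for *Mme* and 0.13 for *Atp6ap2*; the receptor difference was 0.544 points. The cause of the other shifts was not tested. The number of mice limits precision, and without counts the counting error of *Mas1* and *Agtr1b* is unknown.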

Other observations

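Genes whose level followed each member most closely over the 8 libraries are given as a description, with Pearson's r of log2(FPKM + 1) and at most 3 of 13314 genes for each member, so that high values are found by construction. The libraries share their depth and tissue composition across genes, and no shared function is implied. *Ren1* was followed by *Sema3g* (r = 0.956), *Tmem53* (0.951) and *Gm13194* (0.946), *Agt* by *Krt80* (0.916), *Aif1l* (0.911) and *Slc44a2* (0.899), and *Atp6ap2* by *Pigq* (0.960) and *Cisd2* (0.945). For *Ace* these were *Yipf4* (0.998), *Far1* (0.965) and *Slc35a3* (0.958), for *Agtr1a* *Hdhd5* (0.982), *Malat1* (0.973) and *Rergl* (0.968), for *Enpep* *Phtf2* (0.977), *Dnajc13* (0.971) and *Fam126b* (0.963), and for *Mme* *Tom1l2* (0.975), *Aktip* (0.934) and *Osbp* (0.930).

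Mast cells hold chymase, a further enzyme that can make angiotensin II, and its gene *Cma1* was 4.32, 1.13, 0.0001 and 0.0780 FPKM in rFGF4 mice 1, 2, 3 and 5 and 0.0449, 0.0629, 0.0857 and 0.624 FPKM in control mice 2, 3, 4 and 5. The highest value was in rFGF4 mouse 1, where the mast cell protease genes *Cpa3* (1.36 FPKM) and *Ctsg* (0.391 FPKM) were also found, and *Ctsg* was listed at 0.0001 FPKM in the other 7 libraries. These genes were below the level needed for a test and were named after their values were seen.

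Of 57 marker genes tested, 3 (5.26%) had an unadjusted p under 0.05 in limma, close to the 4.62% of all genes tested, and each had an adjusted p of 0.918. The podocyte gene *Synpo*, an actin-binding protein of the foot processes, was 3.93 ± 1.79 FPKM in treated and 1.58 ± 0.475 in control mice (SD, n = 4 each), the proximal tubule transporter *Slc22a7* 0.476 ± 0.331 and 1.40 ± 0.693 FPKM, and the protease inhibitor *Serpina1a* 296 ± 110 and 189 ± 36.7 FPKM. The median log2 fold change was 0.30 for 3 podocyte, -0.43 for 4 late proximal tubule, 0.46 for 5 liver, -0.40 for 4 early proximal tubule, 0.39 for 4 macrophage, 0.20 for 4 mesangial, -0.53 for 4 smooth muscle, -0.20 for 4 endothelial, -0.38 for 4 distal tubule, -0.14 for 4 collecting duct, -0.22 for 5 tested lymphocyte and -1.97 for 5 red blood cell markers. Of the adrenal markers only *Star* was tested (0.03), and of the macula densa markers 2 were, 1 positive and 1 negative.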
